A study of Caenorhabditis elegans with 6 samples.

Results

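The coelomocyte ligand-gated channel family comprises 9 genes here, cup-4 and lgc-21 to lgc-28, of 21882 genes in the deposited table. The 9 genes were chosen by gene name, with their levels in control coelomocytes and their difference between the groups already known from these data. Each of the 9 names matched 1 gene identifier in the table. Their values in the comparison of the groups are therefore given as a description, and no p-value is given for them. The same holds where a fit is said to have called one of the 9 genes: this describes the fit and is not evidence of a difference.

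Coelomocytes are scavenger cells of the nematode body cavity that take up fluid and macromolecules by endocytosis. The gene cup-4 (coelomocyte uptake defective) encodes a homologue of the subunits of nicotinic acetylcholine receptors, it is needed for efficient endocytosis by these cells, and its role there has been tied to phospholipase C. Such subunits belong to the Cys-loop superfamily, whose members assemble as pentamers and, in nerve and muscle, open an ion pore when a neurotransmitter binds. The lgc names mark further genes of the ligand-gated channel superfamily; roles specific to lgc-21 to lgc-28 are not stated here.

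Coelomocytes positive for GFP were sorted from dissociated third-stage (L3) larvae of Caenorhabditis elegans, and their polyadenylated RNA was sequenced in 3 libraries per group. The control group was strain BAT2087, with the reporter barIs177 (GFP under the unc-122 promoter) and the allele glp-4(bn2). The CHE-1 group was strain BAT2088, with the same reporter and allele and also barIs115, in which a coelomocyte promoter (given as coel or unc-122) drives che-1 with 2xFLAG, next to an mCherry marker under the myo-2 promoter. CHE-1 is a zinc finger transcription factor of the ASE taste neurons. All animals of both groups thus carried glp-4(bn2), came from stocks kept at 15 °C, and were raised from eggs at 25 °C, which leaves them without a germline. Each group is 1 strain, so the transgene and any other difference between the strains cannot be told apart. Nothing in the labels says that the libraries come from separate cultures or sorts, and p-values therefore reflect the variation among these 3 libraries a group, possibly technical.

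Library totals ran from 21353072 to 58325279 estimated counts, and control library 2 and CHE-1 library 1 were the shallowest of their groups. The gene che-1 had 0 to 3 counts per control library and 10744 to 50917 per CHE-1 library. CPM are counts per 1e6 of filtered library size times the TMM factor. Summed over the 8 coelomocyte markers on a fixed list, which holds none of the 9 genes, the level was 10017 to 12452 CPM in control. It was 2366 to 3468 CPM in CHE-1 libraries, with 2 markers called lower and 0 higher. No marker was at 0 in a whole group, but far-3 had 0 counts in control library 2 and in CHE-1 libraries 2 and 3. Of these markers, the mannosidase gene aman-1 was at 5159 ± 1254 CPM in control (SD, n = 3) against 7.84, 8.20 and 38.1 CPM in the CHE-1 libraries. Most of the control sum came from aman-1 and from cubn-1, which was at 3810 ± 260 against 1112 ± 244 CPM. The CHE-1 means of the other markers were 25.8% (eya-1) to 87.1% (far-3) of their control means, with unc-122 at 81.5%. The 8 muscle markers summed to 39086 to 40379 against 20408 to 28056 CPM (1 called higher and 1 lower), and most of both sums came from unc-54, whose 3' UTR is also in the transgene. The 8 neuron markers summed to 368.1 to 469.5 against 5046 to 5891 CPM, with 6 called higher and 1 lower. Intestine markers (7 measured) summed to 229.6 to 324.5 against 211.9 to 987.7 CPM, hypodermis markers to 161.6 to 229.3 against 106.7 to 177.8, pharynx markers to 73.4 to 583.8 against 87.3 to 160.1 and germline markers to 104.8 to 165.9 against 66.8 to 167.5, with 0 called in these 4 lists. The defining genes at 0 in both groups were nos-2 (germline) and bli-1 (hypodermis). In bulk libraries, fewer cells of a type and less RNA per cell cannot be told apart, and the part of these shifts in the channel gene values was not tested.

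The 9 genes lie on 5 chromosomes in the build WBcel235, with 4 on X, 2 on II and 1 each on III, IV and V. The gene cup-4 (WBGene00000845) is on chromosome III from 7866489 to 7868737 on the plus strand, with 7 exons that code for 433 residues. The gene lgc-26 (WBGene00021981) is near the left end of chromosome V, from 268307 to 271419 on the plus strand, with 9 exons and 486 residues. On chromosome II, lgc-28 (WBGene00044301) spans 2625092 to 2627109 and lgc-27 (WBGene00022283) 4649085 to 4653283, both on the plus strand. On X, lgc-23 (WBGene00007594, 12065208 to 12067433) and lgc-24 (WBGene00045385, 12068550 to 12070563) follow each other on the plus strand. They are separated by 1116 bp with 0 protein-coding genes between them, which makes them the closest pair of the family. Also on X, lgc-21 (WBGene00007903, 14064313 to 14067984) and lgc-25 (WBGene00010994, 14158785 to 14161734) are both on the minus strand, 90800 bp and 17 protein-coding genes apart. The gene lgc-22 (WBGene00017483) is on IV from 4301306 to 4304448 on the plus strand. The coding lengths of the 9 genes run from 389 residues for lgc-24 to 502 for lgc-25, in 5 to 10 exons of the longest coding transcript, so the family is fairly uniform in size.

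In control coelomocytes the family fell into an abundant, an intermediate and a low tier that together spanned 3 orders of magnitude. Levels between genes are compared as CPM per kb of exon, scaled by TMM factors. The gene cup-4 was highest, at 3247, 2282 and 3546 CPM per kb in control libraries 1, 2 and 3, and held rank 45 among 19637 protein-coding genes by mean control level. The gene lgc-26 had 2106, 1750 and 2610 CPM per kb (rank 74). Below them, lgc-28 had 1142, 898.5 and 1201 CPM per kb (rank 127) and lgc-25 had 1006, 964.1 and 1043 CPM per kb (rank 130). The 4 genes of this tier supplied 96.7% to 97.3% of the family's summed CPM in the control libraries. The ranges of cup-4 and lgc-26 overlapped, although cup-4 was above lgc-26 in 3 of 3 control libraries, and lgc-28 and lgc-25 changed places in control library 2. The order of lgc-28 and lgc-25 thus did not hold from library to library, whereas cup-4 was also above lgc-26 in 3 of 3 CHE-1 libraries. In control, lgc-26 stood clear of lgc-28 and lgc-25 of lgc-23. The gene lgc-25 was the steadiest of the family, with an SD of 3.93% of its control mean against 21.8% for cup-4.

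**Figure D1:**
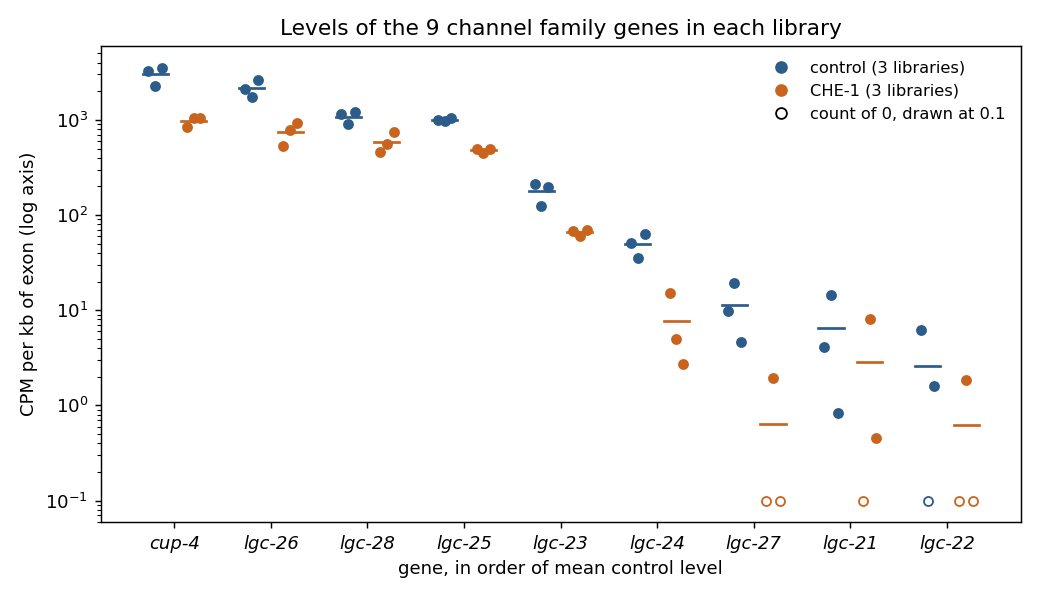
Level of each of the 9 genes in each library, as CPM per kb of exon on a log axis, with control libraries in blue, CHE-1 libraries in orange and short lines at the group means; a count of 0 is an open circle drawn at 0.1. The top 4 genes sit near or above 1000 CPM per kb in control, and for lgc-21 and lgc-22 the points of the groups interleave.

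The intermediate tier was the tandem pair. The gene lgc-23 had 213.4, 123.9 and 195.7 CPM per kb in control libraries 1, 2 and 3 (rank 475), and lgc-24 had 51.1, 35.6 and 63.4 CPM per kb (rank 1503). The ranges did not overlap, so the upstream gene of the pair was the higher one in each control library.

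The low tier was made up of lgc-27, lgc-21 and lgc-22. Their mean control levels were 11.3 ± 7.47, 6.51 ± 7.18 and 2.59 ± 3.20 CPM per kb (SD, n = 3 each), with ranges that overlapped from one to the next. In control libraries 1, 2 and 3, lgc-27 had 745, 691 and 373 counts and lgc-21 had 316, 525 and 68. The gene lgc-22 had 461, 0 and 127 counts, where the 0 allows up to 0.126 CPM at the depth of that library. Each of these 3 genes varied between control libraries by 66.4% to 123% of its mean, yet lgc-27 was above both others in 3 of 3 control libraries. The order of lgc-21 and lgc-22 changed between control libraries. The genes that border the series of names were not detected to any extent: lgc-20 had 0 counts in all 6 libraries and lgc-29 had 11 counts, all in control library 3.

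The question put by the second group is what becomes of coelomocyte genes when CHE-1 is expressed in the cells. The summed CPM of the 9 genes was 11632, 9172 and 13000 in control libraries 1, 2 and 3 and 3602, 4343 and 4906 in CHE-1 libraries 1, 2 and 3. The groups did not overlap, and the mean in control was 2.63-fold that in CHE-1 libraries (11268 ± 1940 against 4283 ± 654 CPM, SD, n = 3 each). All 9 genes passed the count filter, and 6 of them were called lower and 0 higher at an adjusted p under 0.05 in edgeR. Over all 9112 tested genes, 1.69% were called lower and 3.37% higher. Since the genes were chosen with this contrast known, nothing is read from that count. The 6 called genes are those of the abundant and intermediate tiers, and nothing is read from which tiers they belong to.

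The largest genes of the family were lower by about the same factor. The gene cup-4 was at 4630, 3254 and 5057 CPM in control libraries 1, 2 and 3 and at 1204, 1496 and 1510 CPM in CHE-1 libraries 1, 2 and 3. Each CHE-1 library was thus below each control library, and the CHE-1 mean was 32.5% of the control mean, with a log2 fold change of -1.62 (SE 0.20). The gene lgc-26 was at 3470, 2884 and 4301 CPM in control and at 867.2, 1284 and 1520 CPM in CHE-1 libraries, again with no overlap. Its CHE-1 mean was 34.5% of the control mean (log2 fold change -1.54, SE 0.23). Even so, cup-4 still held rank 125 and lgc-26 rank 155 among protein-coding genes in the CHE-1 libraries.

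The other pair of the abundant tier kept more of its level. The gene lgc-25 was at 1701, 1630 and 1764 CPM in control and at 842.4, 750.5 and 833.1 CPM in CHE-1 libraries, which is 47.6% of the control mean (log2 fold change -1.07, SE 0.16). The gene lgc-28 was at 1451, 1142 and 1527 CPM in control and at 577.9, 708.3 and 944.3 CPM in CHE-1 libraries, which is 54.1% (log2 fold change -0.89, SE 0.22). Both genes were separate between the groups, but lgc-28 was the closest to overlap of the abundant tier. The call of lgc-28 was lost without control library 1 or 3, without CHE-1 library 1 or 2, and with library totals in place of TMM factors.

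Within a library the scaling cancels, so the members can be set against cup-4 directly. The log2 ratio of lgc-28 to cup-4 in CPM was -1.67, -1.51 and -1.73 in control libraries 1, 2 and 3 and -1.06, -1.08 and -0.68 in CHE-1 libraries 1, 2 and 3. The ratio was therefore nearer to 0 in each CHE-1 library than in any control library. For lgc-25 the log2 ratio averaged -1.32 ± 0.28 in control and -0.79 ± 0.25 in CHE-1 libraries (SD, n = 3 each), and the groups only just failed to overlap. For lgc-26 it averaged -0.27 ± 0.13 and -0.23 ± 0.24, with full overlap. As shares of the family's summed CPM, cup-4 had 38.1% ± 2.28 in control and 32.9% ± 1.89 in CHE-1 libraries, lgc-28 12.2% ± 0.41 and 17.2% ± 1.78, and lgc-25 15.3% ± 2.19 and 19.2% ± 3.62. These ratios come from the contrast on which the genes were chosen and were not tested.

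**Figure D2:**
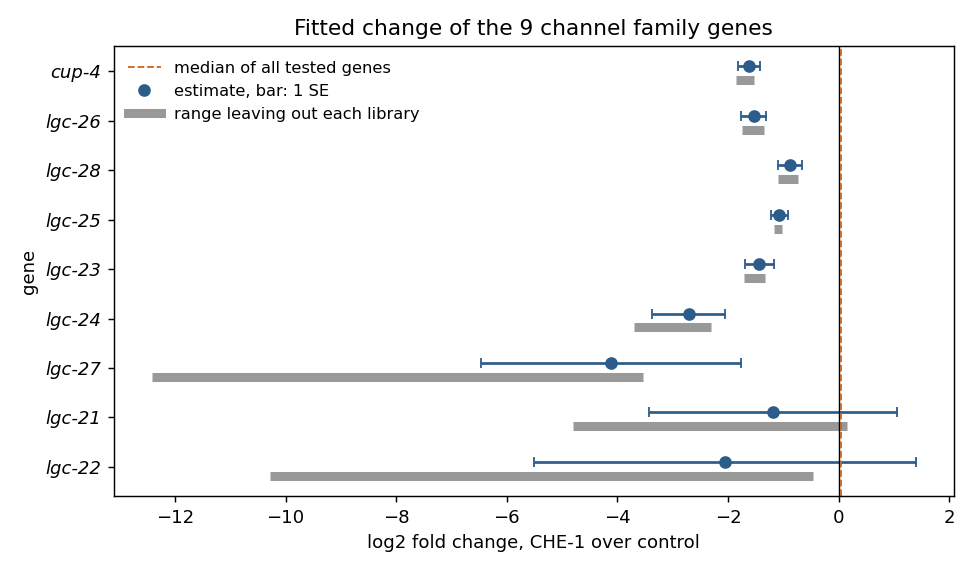
Log2 fold change of each of the 9 genes, CHE-1 over control, with 1 SE (blue), the range over the 6 fits that leave out 1 library each (grey) and the median of all tested genes (dashed, 0.04). The 6 genes of the upper tiers lie left of 0 in every fit, from -0.73 for lgc-28 to -3.70 for lgc-24, while the range of lgc-21 crosses 0.

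The tandem genes lgc-23 and lgc-24 differed in how far apart the groups were. The gene lgc-23 was at 289.6, 168.2 and 265.5 CPM in control and at 92.5, 81.0 and 94.3 CPM in CHE-1 libraries, which is 37.0% of the control mean (log2 fold change -1.43, SE 0.26). The gene lgc-24, at 51.1, 35.6 and 63.4 CPM per kb in control, was at 15.3, 4.97 and 2.71 CPM per kb in CHE-1 libraries, which is 15.3% (log2 fold change -2.71, SE 0.66). Neither gene overlapped between the groups, and CHE-1 library 1 was the highest of its group for lgc-24. The ratio of lgc-23 to lgc-24 in CPM was 4.79, 3.99 and 3.54 in control libraries 1, 2 and 3 and 5.13, 13.8 and 29.4 in CHE-1 libraries 1, 2 and 3. The ratio was thus higher in each CHE-1 library, by a wide margin in 2 of them. The call of lgc-24 was lost without control library 3 or CHE-1 library 2, and without CHE-1 library 1 its log2 fold change was -3.70.

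In the low tier, the counts of the CHE-1 group came almost wholly from CHE-1 library 2. The gene lgc-27 had 0, 182 and 0 counts in CHE-1 libraries 1, 2 and 3, and lgc-22 had 0, 172 and 0. The gene lgc-21 had 0, 771 and 36 counts there, so that 95.5% of its CHE-1 counts were in library 2. That library was the deepest of the CHE-1 group, with 57860556 counts, but CHE-1 library 3 was close to it, with 50101797. A part of depth in this was not tested. A count of 0 allows up to 0.136 CPM in CHE-1 library 1 and up to 0.0572 CPM in CHE-1 library 3. The log2 fold changes of lgc-27, lgc-21 and lgc-22 were -4.12 (SE 2.35), -1.19 (SE 2.23) and -2.06 (SE 3.45). For lgc-21 the sign turned without control library 2, to 0.16, and without both shallowest libraries, to 0.75, and no direction is given for it. Without CHE-1 library 2 the counts of lgc-27 and lgc-22 in that group are all 0. The gene lgc-27 was then called lower, which is likewise only a description of the fit.

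Counting also the low tier, 7 of the 9 genes had each CHE-1 library below each control library, and 10.3% of all tested genes did. As above, the choice of genes used this contrast.

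Levels were also set against coelomocyte markers within each library, where the scaling cancels, and the outcome depended on the marker. The first was unc-122, whose promoter marks the cells for the sort (1668 ± 391 CPM in control and 1360 ± 187 in the CHE-1 group, adjusted p = 0.741 in edgeR). The ratio of cup-4 to unc-122 in CPM was 2.57, 2.65 and 2.56 in control libraries 1, 2 and 3 and 0.928, 1.23 and 0.962 in CHE-1 libraries 1, 2 and 3, without overlap. Against cubn-1, the cubilin homologue and one of the markers called lower, the ratio of cup-4 was 1.31, 0.803 and 1.32 in control libraries and 1.36, 1.38 and 1.10 in CHE-1 libraries, and the groups overlapped. Of the 8 markers, 7 had a count in every library. The mean ratio of cup-4 was lower in the CHE-1 group for 3 of them (unc-122, let-381 and cup-5) and higher for 4 (cubn-1, ceh-34, eya-1 and aman-1). Library by library, the groups were separate for unc-122 and let-381, both lower, and for aman-1, higher. They overlapped for cup-5, cubn-1, ceh-34 and eya-1. How far cup-4 stands apart from the other coelomocyte genes is therefore not given by any one of these references, and the comparison was added after the marker values were seen.

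The rest of the Cys-loop superfamily, for which genes were taken by name (lgc, acr, glc and ggr genes and 16 named others), was sparse in control coelomocytes, and the genes called among it were higher in the CHE-1 libraries. Of 89 such genes in the table, 66 had a count in some library and 31 were tested. Among the 31, 3 were called higher and 0 lower, with a median log2 fold change of 1.79 against 0.04 over all tested genes. Of all tested genes 3.37% were called higher and 1.69% lower, so 0 called lower among 31 is not read as a result. The count filter bears on that median, since 58 genes were not tested, 6 of the tested genes had under 10 counts in at least 2 control libraries and 7 had so few in at least 2 CHE-1 libraries. Among those 6 is lgc-48, which was also called, and no direction of the list is read from the median. On average 4 of the 89 exceeded 10 CPM in control, where the 9 genes supplied 98.1% to 98.6% of the summed CPM of the 9 and these 89 genes together. In the CHE-1 libraries the 9 genes supplied 78.9% to 82.5% of it. The 89 genes summed to 185.2 ± 14.1 CPM in the control group against 983.6 ± 50.3 CPM in the CHE-1 group (SD, n = 3 each).

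The called genes were unc-63, lgc-39 and lgc-48. The gene unc-63 encodes an alpha subunit of the levamisole-sensitive acetylcholine receptor, and it was at 27.2, 22.9 and 34.4 CPM in control and at 215.2, 203.0 and 210.5 CPM in CHE-1 libraries. It rose by 2.89 on the log2 scale (SE 0.28), at an edgeR adjusted p of 8.92e-05. The gene lgc-39 averaged 13.7 ± 4.89 CPM in control and rose to 77.3 ± 9.38, or by 2.49 on the log2 scale (SE 0.42), at an edgeR adjusted p of 0.00439. The gene lgc-48 had 1 count in the control libraries in all and 68.0 ± 12.0 CPM in CHE-1 libraries, an edgeR adjusted p of 7.40e-06 and a ratio of 8731 with an exact 95% counting interval of 1567 to 344860. The most abundant of the 89 in control per length, after unc-63 at 17.3 ± 3.56 CPM per kb, was the glutamate-gated chloride channel gene avr-14 at 11.5 ± 1.47. It had 32.7, 26.5 and 33.9 CPM in control libraries and a mean of 60.6 ± 5.92 in the CHE-1 group (adjusted p = 0.204 in edgeR). The next were lgc-39 at 7.37 ± 2.62, lgc-1 at 6.53 ± 4.18 and the GABA receptor gene unc-49 at 4.81 ± 0.602 CPM per kb. The gene lev-8, another levamisole receptor subunit, was singled out after its values were seen. It was at 3.53 ± 3.25 CPM in control and 228.6 ± 31.9 in CHE-1 libraries, and it did not pass (adjusted p = 0.0998 in edgeR).

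**Figure D3:**
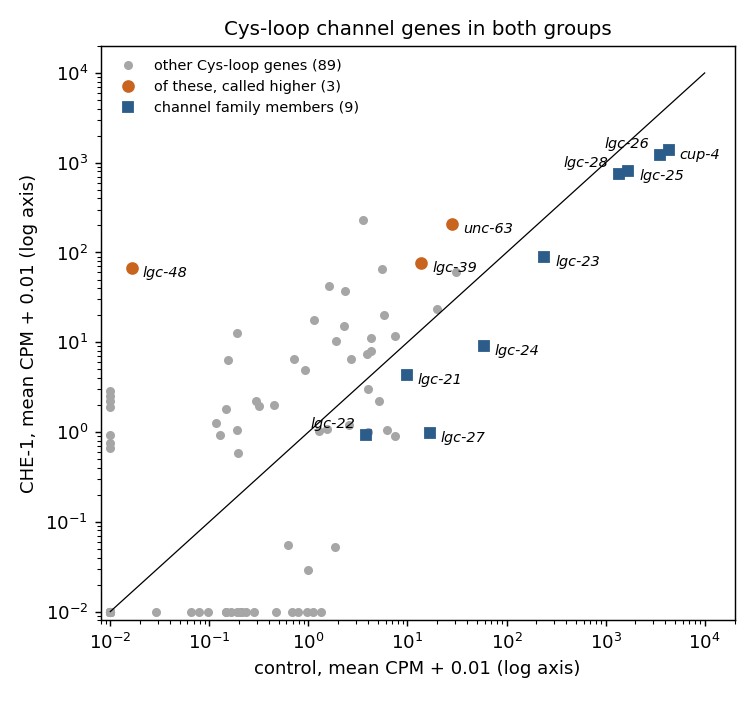
Mean CPM plus 0.01 in CHE-1 libraries against control libraries (log axes) for the 9 channel family genes (blue squares), 89 other Cys-loop genes (grey) and the 3 of these called higher (orange); the line marks equal levels. The 9 squares lie below the line by their means, although the libraries of the groups overlap for lgc-21 and lgc-22. Only 4 of the other genes exceed 10 CPM in control.

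Genes that help Cys-loop receptors to fold, leave the endoplasmic reticulum or cluster were measured as a further list of 13. Of these, 12 were in the table and 9 were tested, with 2 called higher, 0 lower and a median log2 fold change of 0.19. Over all tested genes the shares called were 3.37% higher and 1.69% lower. The gene lev-10, which clusters acetylcholine receptors at muscle synapses, averaged 28.6 ± 16.3 CPM in control and rose to 195.6 ± 43.5, or by 2.77 on the log2 scale (SE 0.48), at an edgeR adjusted p of 0.00738. The copine gene nra-1 rose from 44.1 ± 23.3 to 165.2 ± 66.3 CPM (adjusted p = 0.0345 in edgeR). Its call was lost without control library 2 or 3 (adjusted p = 0.0598 and 0.151 in edgeR), without CHE-1 library 1 or 3 (0.0920 and 0.0730) and when the shallowest control and CHE-1 libraries were both left out (0.145). The most abundant of the list was the nodal modulator homologue nra-4, at 365.0 ± 75.6 in control against 392.1 ± 45.3 CPM in the CHE-1 group. The receptor chaperone gene ric-3 was at 25.6 ± 1.23 and 69.1 ± 16.8 CPM (adjusted p = 0.0507 in edgeR).

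Genes listed beside cup-4, by name from the cup and rme series and from phosphoinositide signalling, went in both directions. A role in coelomocyte uptake was not checked for each of them. The list held 19 genes, namely the other cup and rme genes and 9 of the phospholipase C, phosphoinositide and inositol trisphosphate pathway. Of these 18 were tested, with 1 called higher, 3 lower and a median log2 fold change of -0.34, against 3.37% higher and 1.69% lower over all tested genes. The phospholipase C beta gene plc-2 had 85.4, 143.0 and 91.8 CPM in control libraries 1, 2 and 3 and 1.95, 1.64 and 0.210 CPM in CHE-1 libraries. It fell by 6.42 on the log2 scale (SE 0.81, adjusted p = 0.00113 in edgeR). The inositol trisphosphate receptor gene itr-1 had 2.61, 12.0 and 8.14 CPM in control and rose to 1125, 751.7 and 888.3, or by 6.94 on the log2 scale (SE 0.63), at an edgeR adjusted p of 0.000739. The second phospholipase C beta gene, egl-8, was at 452.0 ± 49.7 against 480.9 ± 60.4 CPM. Also called lower were the endosomal J-domain protein gene rme-8 (log2 fold change -1.26) and the synaptojanin gene unc-26 (-1.23). Among the genes named for the same uptake defect, the derlin gene cup-2 was at 86.6 ± 5.81 against 48.7 ± 16.7 CPM and the mucolipin gene cup-5, also on the coelomocyte marker list, at 30.1 ± 16.5 against 23.2 ± 14.2, and neither passed (adjusted p = 0.285 and 0.998 in edgeR).

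The genome neighbours of the family, taken by position as the nearest 2 protein-coding genes on each side that are not family members, were mostly silent or low in these cells. Of 32 such genes, 6 had no count in any library, 23 were under 5 CPM on average in control and 4 were above 100 CPM. In the control libraries alone, sup-18, D2062.5 and tmem-145 also had 0 counts. Over all 19637 protein-coding genes of the table, 11758 had a count in a control library, which is not the same measure as a count in any library. The share of all genes under 5 CPM was not computed, so neither silence nor low levels are read as a trait of these neighbours. Beside cup-4, the neighbours were far below its own level. The gene slc-17.3, 1200 bp upstream on the opposite strand, was at 3.22 ± 3.42 CPM in control, and tyr-1, 5043 bp downstream, was at 32.1 ± 6.24, against 4314 ± 942 CPM for cup-4 itself. Around lgc-26, 4 neighbours within 13615 bp were at or below 2.84 CPM on average in control, among them the neuropeptide gene nlp-70, 502 bp downstream on the opposite strand. Around lgc-28, the gene D2062.4 lies 561 bp upstream on the same strand and was at 2.16 ± 2.57 CPM in control and at 0 counts in the CHE-1 libraries. The surroundings of lgc-25 were the main exception: vha-20 (1364 bp upstream), sym-4 and akt-2 were at 248.3 ± 35.2, 194.4 ± 47.3 and 184.8 ± 42.6 CPM.

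Of the 32 neighbours 17 were tested, with 2 called higher, 0 called lower and a median log2 fold change of 0.76. Over all tested genes 3.37% were called higher and 1.69% lower, so 0 called lower among 17 is not read as a result. Of the tested neighbours 2, tmem-145 and npr-5, had under 10 counts in at least 2 control libraries. So few were also seen for 2 in at least 2 CHE-1 libraries, and 5 were at an unadjusted p under 0.05 in edgeR. The gene arrd-25, an arrestin domain gene 26844 bp downstream of lgc-21, averaged 21.6 ± 7.46 CPM in control and rose to 97.3 ± 2.76, or by 2.17 on the log2 scale (SE 0.36), at an edgeR adjusted p of 0.00416. The gene tmem-145, which faces lgc-24 with 67 bp between their ends, had 0 counts in each control library and 36.6, 2.38 and 32.2 CPM in CHE-1 libraries 1, 2 and 3. By group means only, tmem-145 was at least 295-fold higher there, taking 3 counts per library as the floor (adjusted p = 0.0102 in edgeR). That mean was 23.7 ± 18.6 CPM (SD, n = 3), and CHE-1 library 2 was far below it. The call was lost without CHE-1 library 3 (adjusted p = 0.0540 in edgeR) and when the shallowest control and CHE-1 libraries were both left out (0.0551). The genes closest to passing in the direction of the family were akt-2 near lgc-25 (log2 fold change -1.03, adjusted p = 0.0743 in edgeR) and tyr-1 near cup-4 (-1.48, adjusted p = 0.253). These 2 were named after their values were seen. By position, the highest control levels beside the other members belonged to W03G11.4 (104.2 ± 60.1 CPM, near lgc-23 and lgc-24), set-9 (4.04 ± 4.11, near lgc-22) and che-10 (3.19 ± 3.60, near lgc-27), and none was called. The gene fut-6 overlaps lgc-27 by 108 bp on the opposite strand and had 58 counts in all, in control library 3. Use of the strand in counting is not given in the sources at hand, so reads of the overlap cannot be told apart.

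**Figure D4:**
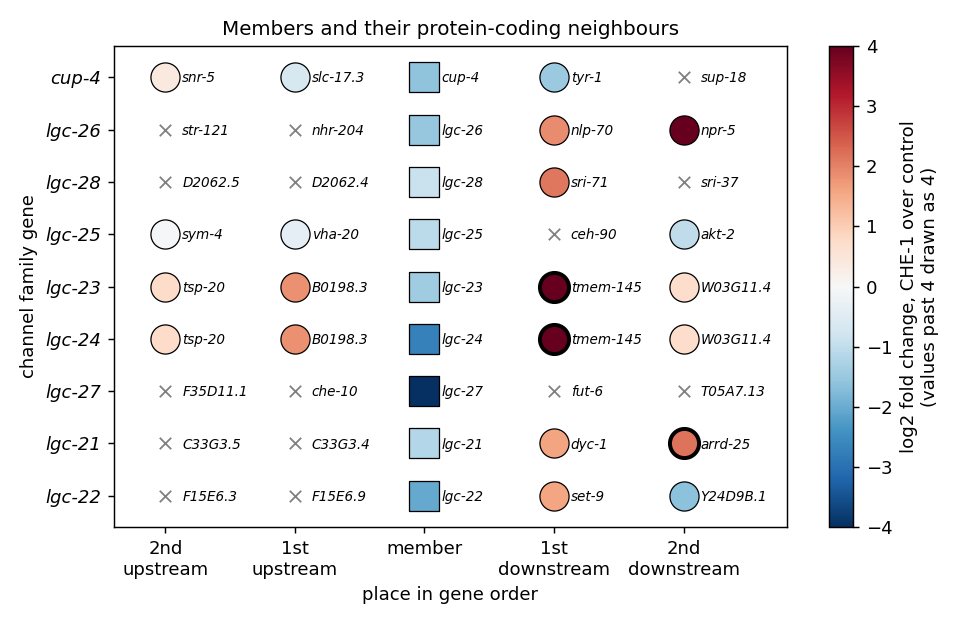
Log2 fold change, CHE-1 over control, of each of the 9 genes (squares) and its 2 nearest protein-coding neighbours on either side that are not members (circles), in gene order and oriented by the strand of the member; colours stop at 4 and -4, thick rims mark neighbours called, and crosses are genes that did not pass the count filter. The 9 squares are all blue by their estimates, but no direction is given for lgc-21, and the SE of lgc-22 exceeds its estimate. The 2 called neighbours, tmem-145 (shown at both lgc-23 and lgc-24) and arrd-25, are red. Neighbours that were not called are red or blue, with tyr-1 and akt-2 among the blue ones.

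Across all tested genes, those whose log2 CPM followed cup-4 most closely over the 6 libraries were catp-6, Y116A8C.3 and Y73F4A.1, with Pearson's r of 0.999, 0.997 and 0.996. Their sizes of difference varied: catp-6, a P-type ATPase gene, was at 360.5 ± 20.2 CPM in control and 270.1 ± 7.03 in CHE-1 libraries, Y116A8C.3 at 960.3 ± 186 and 353.9 ± 62.3, and Y73F4A.1 at 2744 ± 857 and 351.6 ± 74.1. For lgc-26 the closest were tag-335, the glutamate dehydrogenase gene gdh-1 and cof-2, with r of 0.999, 0.995 and 0.995. These genes were at 203.0 ± 57.2, 1605 ± 120 and 1412 ± 131 CPM in control and at 41.9 ± 16.3, 915.2 ± 142 and 651.9 ± 128 in CHE-1 libraries. The 6 points share the difference between the groups, so r mainly ranks genes that are separate between them and is given only as a measure of likeness.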

How the data were processed

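Per the labels, polyadenylated RNA of sorted coelomocytes was sequenced in 3 control and 3 CHE-1 libraries. The authors' deposited table holds estimated counts per gene, already whole numbers. The submitters' processing notes name Salmon 0.13.1, DESeq2 and the build WBcel235 and give no roles. A second deposited table holds a signal equal to the estimated count divided by 1 factor per library, for 12808 genes, and served only to check that relation. Names and coordinates came from Ensembl release 115 of WBcel235 (21714 of 21882 identifiers matched) and a gene name table.

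The groups were compared with edgeR 4.0.16 in R 4.3.3 (robust glmQLFit and glmQLFTest, two-sided, TMM, filterByExpr with minimum count 10 and minimum total 15). Calls needed an adjusted p (Benjamini-Hochberg, over 9112 genes) under 0.05. The steps were tested on simulated data. SE is the absolute log2 fold change over the square root of F, which is approximate near 0 counts. CPM are counts per 1e6 of filtered library size times the TMM factor, and CPM per kb divide them by merged exon length. DESeq2 1.42.0, limma-voom (limma 3.58.1), other scalings, no filter and leaving out libraries were alternatives. Library pairs of a group differed far beyond sampling noise (a chi-square of 213 or more for each degree of freedom, over genes with at least 20 counts in the pair), so none was counted as 1. Estimated counts can be split between similar genes, which was not examined. Floors (3 counts) and intervals cover counting error only.

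The members and the gene lists were chosen with earlier results of these data known. Named genes were the 9 members; called neighbours and the most abundant neighbour of each member; of the other Cys-loop genes, those called and the 5 highest per kb in control; called genes of the other lists; and the 3 genes most correlated with each of the 2 highest members. Other genes are marked or serve as context.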

Additional observations from a re-analysis of the deposited data

How the results depend on the processing

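The log2 ratio of the summed CPM of the 9 genes was -1.40, and it ran from -1.59 to -1.22 over 9 alternatives, with the value nearest to 0 for library totals with no scaling factor. That setting moved the median log2 fold change of all tested genes from 0.04 to 0.21. The number of the 9 genes called was 4 to 6 over 12 alternatives. The place of each gene in the order of control levels was the same with coding length (summed from the annotation) in place of exon length. DESeq2 and limma-voom each called 5 neighbours in place of 2, leaving out 1 library gave 1 to 3, and leaving out the shallowest library of each group, chosen after seeing the data, gave 1. Of the other Cys-loop genes, 6 were called with no count filter, 9 by DESeq2, 5 by limma-voom and 3 to 6 when 1 library was left out, in place of 3. Of the assembly and clustering genes, 3 were called with library totals, with no count filter, by DESeq2 and by limma-voom, and 1 to 2 when 1 library was left out, in place of 2. The uptake and phosphoinositide list gave 4 to 6 calls, in place of 4. The causes were not tested. No paired analysis was possible because the labels do not say which control and CHE-1 libraries belong together; the library names alternate between the groups, and whether libraries with adjoining names share a preparation is not stated. Without CHE-1 library 2, the fitted log2 fold changes of the low tier were -12.42 (lgc-27), -4.81 (lgc-21) and -10.27 (lgc-22), which depend on the prior count.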
